A study of Danio rerio with 6 samples.

Results

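The 10 genes described here are the immediate early transcription factor genes ier2a, ier2b, fosab, fosb, fosl1a, jun, junba, junbb, egr1 and atf3, taken by name from a table of 30628 zebrafish (Danio rerio) genes. The gene table at hand spells 7 of these 10 in the human style: FOSB, JUN and ATF3 differ from fosb, jun and atf3 in case alone, while FOS was taken as fosab and FOSL1 as fosl1a by the rule that a paralogue suffix may be missing. The symbol JUNB stands on a pair of rows, ENSDARG00000074378 and ENSDARG00000104773. The table does not say which of them is junba and which is junbb, so they are named here by their identifiers. All 10 genes passed the filter on low counts, and the smallest count of any of them in any library was 12.

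Gene expression was measured by RNA sequencing of total RNA in 6 liver samples, 3 per group, all titled 2 wpi. The ATG5 group had the genotype ATG5 overexpression and received mifepristone. It comes from the line Tg(fabp10a:mCherry-T2A-LexPR;LexOP:ATG5WT), in which the hepatocyte promoter of fabp10a drives a mifepristone-dependent activator that in turn switches on human ATG5, an autophagy gene. The WT group carried no such genotype and received mifepristone too; the series describes the groups as liver cancer (HCC) and normal liver. Mifepristone is known as an antagonist of the glucocorticoid and progesterone receptors, and both groups had it. No group had the transgene without the drug, so what the transgene does and any other difference between the lines of fish cannot be told apart. The sources used here do not give the age of the fish, or whether a replicate is 1 fish or a pool, so p-values reflect no more than the spread among these samples, which may be technical.

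Immediate early genes are switched on within minutes of a stimulus such as a growth factor, cytokine, stress or tissue handling, without new protein synthesis, by transcription factors such as SRF with its ELK partners and CREB that mitogen-activated protein kinases activate. Fos and Jun proteins pair through leucine zippers to form AP-1, a dimer that binds DNA at target genes; EGR1 is a zinc finger factor, ATF3 is a stress-induced factor of the same zipper class, and IER2 is a nuclear protein without a DNA-binding domain of either class. In mammalian liver these genes are known for a burst of expression at the start of regeneration and after injury.

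The immediate early genes were mostly higher in the ATG5 livers. Of the 10 genes, 6 rose and 0 fell (edgeR quasi-likelihood test, Benjamini-Hochberg adjusted p under 0.05 over all 20366 genes tested). Of all genes tested, 17.3% were called higher and 13.2% lower. The count of 0 also held at an unadjusted p under 0.05, with DESeq2 (17.8% of all genes lower) and with limma-voom (13.2% lower). The share of all genes lower at the unadjusted threshold was not counted, but it cannot be below the 13.2% called after adjustment. Leaving out 1 library gave 4 or 5 of the 10 called higher, against 10.4% to 13.3% of all genes tested. Without ATG5 replicate 3, JUNB ENSDARG00000104773 was called lower, where 8.62% of all genes were lower. The median log2 fold change of the 10 was 1.51, against 0.03 over all genes tested. The ATG5 values lay above all WT values for 8 of the 10 genes and below them for 0, against 27.1% and 22.2% of all genes tested. The genes that rose were ier2a, ier2b, fosab, fosl1a, atf3 and JUNB ENSDARG00000074378. The genes egr1, jun, fosb and JUNB ENSDARG00000104773 did not pass.

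**Figure D1:**
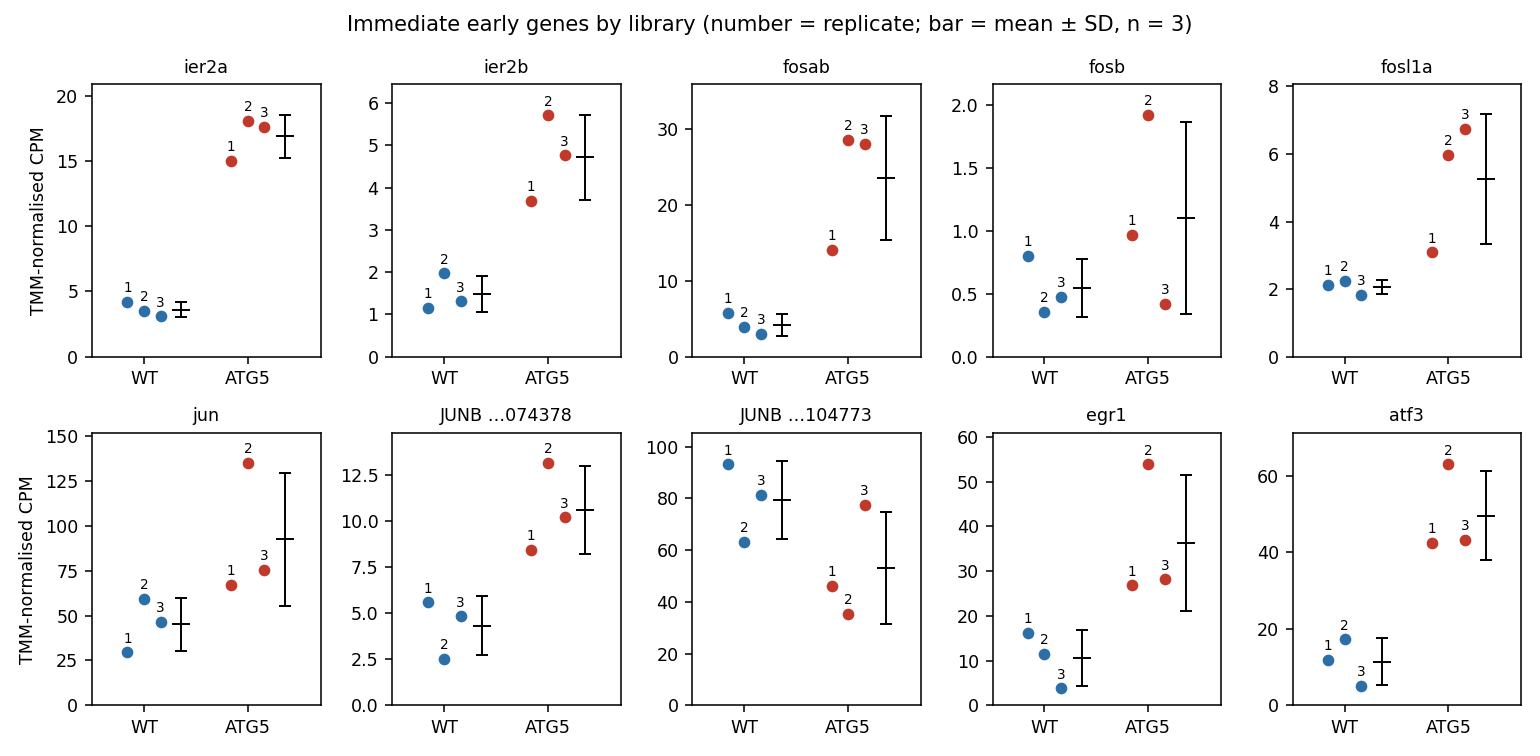
Level of each of the 10 genes in each library. The vertical axes give TMM-normalised CPM (counts scaled to the size of the library) from 0 on a scale of their own for each gene, the numbers mark replicates, and bars show the mean ± SD of 3 samples. The ATG5 points lie above all WT points in every panel but those of fosb and JUNB ENSDARG00000104773.

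IER2 genes encode nuclear proteins known for rapid induction by growth factors. The level of ier2a was 14.99, 18.1 and 17.6 CPM in ATG5 replicates 1 to 3 and 4.20, 3.53 and 3.10 CPM in WT replicates 1 to 3. CPM is given here after TMM scaling, which sets library sizes so that most genes show no change. The lowest ATG5 library of ier2a stood well above the highest WT library, and its means, 16.9 ± 1.66 and 3.61 ± 0.558 CPM (SD, n = 3), were 4.68-fold apart. The log2 fold change was 2.23 ± 0.15 (SE) with an adjusted p of 0.00122, and it was the steadiest of the 10 genes, with a spread within groups below that of most genes (the 18.5th percentile of all genes tested).

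Its paralogue ier2b also separated the groups. It stood at 3.69, 5.71 and 4.76 CPM in ATG5 and at 1.16, 1.97 and 1.31 CPM in WT. This was a log2 fold change of 1.66 ± 0.29 (SE, n = 3 per group), with an adjusted p of 0.0108. Both ier2 genes and fosab, 3 of the 10 genes, were the only ones of the 10 called in all 13 alternative fits run on them.

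The ratio of ier2a to ier2b within a library does not depend on library scaling. Its log2 value was 2.02, 1.66 and 1.89 in ATG5 and 1.84, 0.83 and 1.23 in WT. WT replicate 1 lay within the ATG5 range, and the difference of 0.56 between the group means did not pass (exact two-sided permutation test, p = 0.2, where 0.1 is the smallest this test can give).

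Among the Fos genes, which encode the AP-1 partners that cannot pair with themselves, fosab and fosl1a rose. The level of fosab, the zebrafish counterpart of c-Fos, was 14.1, 28.6 and 28.0 CPM in ATG5 and 5.76, 3.89 and 2.98 CPM in WT. ATG5 replicate 1 stood at about the middle of the way from the WT libraries to the other ATG5 libraries, and the groups did not overlap. Its log2 fold change, 2.48 ± 0.43 (SE, n = 3 per group), was the largest of the 10, with an adjusted p of 0.00559. Leaving out any 1 library gave 2.28 to 2.77 and kept the call.

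The level of fosl1a, which encodes the Fos-related protein FRA1, was 3.09, 5.97 and 6.74 CPM in ATG5 and 2.12, 2.24 and 1.83 CPM in WT. The groups did not overlap, but ATG5 replicate 1 was closer to the WT libraries than to the other ATG5 libraries. In log2 terms the change was 1.35 ± 0.36 (SE, n = 3 per group) with an adjusted p of 0.0267. That call rested on nearly every library: it did not survive leaving out ATG5 replicate 2 (log2 fold change 1.24, adjusted p = 0.0755), ATG5 replicate 3 (1.104, 0.0826), WT replicate 1 (1.36, 0.0812), WT replicate 2 (1.41, 0.0642) or WT replicate 3 (1.26, 0.0803). It was also lost with limma-voom (1.27, adjusted p = 0.074).

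The third Fos gene, fosb, had the fewest counts of the 10 and stood at 0.969, 1.92 and 0.419 CPM in ATG5 and 0.801, 0.359 and 0.476 CPM in WT. ATG5 replicate 3 was below WT replicates 1 and 3, and the groups overlapped. Its counts were 52, 95 and 25 in ATG5 and 20, 12 and 12 in WT. The log2 fold change of 1.02 ± 0.68 (SE, n = 3 per group) did not pass (adjusted p = 0.28), but did when libraries were scaled by size alone (2.01, adjusted p = 0.0403).

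Jun proteins are the partners of Fos in AP-1 and can also pair with each other. The level of jun was 67.3, 135 and 75.3 CPM in ATG5 and 29.5, 59.2 and 46.5 CPM in WT. All ATG5 values lay above all WT values, with ATG5 replicate 1 close above WT replicate 2 and ATG5 replicate 2 far above the rest. A log2 fold change of 1.04 ± 0.43 (SE, n = 3 per group) did not pass (adjusted p = 0.0753). DESeq2 called it higher (1.00, adjusted p = 0.027), as did the fit on unscaled library sizes (1.98, adjusted p = 0.00778).

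The JUNB genes had fold changes of opposite sign under TMM scaling. JUNB protein is known in mammals as an AP-1 subunit that weakens transactivation by c-Jun at some promoters. JUNB ENSDARG00000074378 stood at 8.44, 13.2 and 10.2 CPM in ATG5 and at 5.60, 2.51 and 4.84 CPM in WT, with every ATG5 library above every WT library. Its log2 fold change was 1.30 ± 0.40 (SE, n = 3 per group) with an adjusted p of 0.0316. It did not pass when any of 4 libraries was left out: ATG5 replicate 1 (1.41, adjusted p = 0.0561), ATG5 replicate 2 (1.105, adjusted p = 0.0917), ATG5 replicate 3 (1.30, adjusted p = 0.078) or WT replicate 3 (1.38, adjusted p = 0.0718).

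JUNB ENSDARG00000104773 stood at 46.3, 35.4 and 77.4 CPM in ATG5 and at 93.1, 63.2 and 81.3 CPM in WT. It had the only log2 fold change below 0 among the 10 genes, and ATG5 replicate 3 lay above WT replicate 2, so the groups overlapped. The log2 fold change of -0.58 ± 0.37 (SE, n = 3 per group) did not pass (adjusted p = 0.217). Its direction depended on the scaling: scaled by size alone, the change was 0.36 (adjusted p = 0.31), still below the median of 0.97 over all genes in that setting. Without ATG5 replicate 3 the gene was called lower (-0.98, adjusted p = 0.0496).

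The balance between the JUNB genes can be set side by side whatever the library scaling. The log2 ratio of the counts of ENSDARG00000074378 to those of ENSDARG00000104773 was -2.45, -1.43 and -2.92 in ATG5 and -4.05, -4.64 and -4.06 in WT. Every ATG5 ratio lay above every WT ratio, and the group means, -2.27 ± 0.76 and -4.25 ± 0.34 (SD, n = 3), differed by 1.99 on the log2 scale. The exact two-sided permutation test gave p = 0.1, the smallest it can give, so that test cannot reach 0.05 with 3 samples per group. Estimated counts can be split between similar genes, and how far that applies to this pair was not tested.

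EGR1 is a zinc finger factor induced by the same kinase routes as Fos. The level of egr1 was 26.8, 53.9 and 28.2 CPM in ATG5 and 16.1, 11.6 and 3.77 CPM in WT. No ATG5 library fell within the WT range, but both groups were wide: ATG5 replicate 2 stood far above the other ATG5 libraries and WT replicate 3 far below the other WT libraries. With that spread, a log2 fold change of 1.79 ± 0.71 (SE, n = 3 per group) missed the threshold (adjusted p = 0.0531). The gene passed with DESeq2 (1.76, adjusted p = 0.00532), limma-voom (1.93, adjusted p = 0.0412), a stricter filter (1.79, adjusted p = 0.0497) and library sizes only (2.76, adjusted p = 0.00779).

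ATF3 is known both as an immediate early factor and as a target of ATF4 in the integrated stress response. The level of atf3 was 42.5, 63.1 and 43.3 CPM in ATG5 and 11.8, 17.3 and 5.08 CPM in WT. Every ATG5 library exceeded every WT library, and the means were 49.6 ± 11.7 and 11.4 ± 6.12 CPM (SD, n = 3). The log2 fold change was 2.12 ± 0.55 (SE) with an adjusted p of 0.0162. Without WT replicate 1 the call was lost, at 2.14 with an adjusted p of 0.0592.

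**Figure D2:**
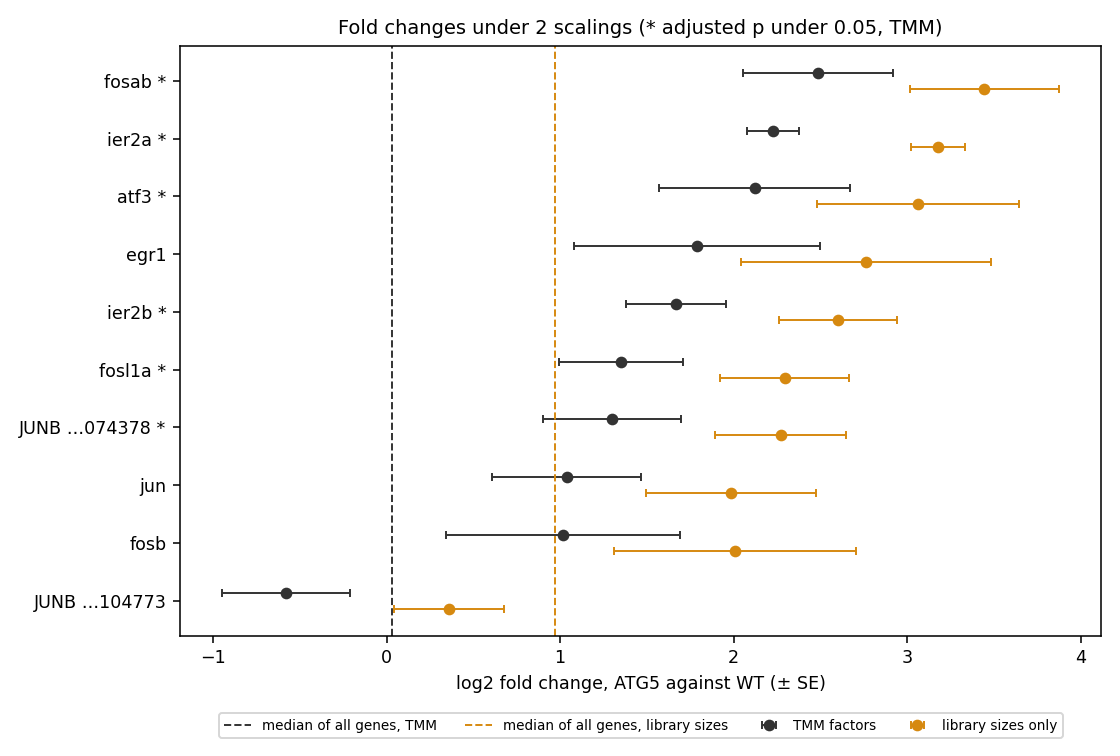
Log2 fold change (ATG5 against WT, horizontal axis) of each of the 10 genes with its SE, with TMM factors (dark) and with library sizes only (orange); dashed lines mark the median of all genes tested under each scaling. Under both scalings 9 of the genes lie to the right of that median, and JUNB ENSDARG00000104773 lies to its left.

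The size of these changes depended on how libraries were scaled. The ATG5 libraries had TMM factors of 1.33 to 1.47 and the WT libraries of 0.684 to 0.763, while the share of counts in the 10 most abundant genes was 16.45% to 17.71% for ATG5 libraries, below the 25.22% to 27.69% for WT libraries. With library sizes only, log2 fold changes moved up by a median of 0.94. In that setting 9 of the 10 immediate early genes were called higher and 0 lower, against 53.3% and 2.84% of all genes tested. Total counts ran from 33668921 to 44763213 per library, and all fold changes here are relative to TMM scaling unless stated.

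The 10 genes also differed in how replicates of a group varied. ATG5 replicate 2 was the highest ATG5 library for 8 of the 10 genes, all but fosl1a and JUNB ENSDARG00000104773, and ATG5 replicate 1 was the lowest for 8. ATG5 replicate 2 lay above its group mean for 9 of the genes, by 0.35 on the log2 scale on average over the 10. In WT, replicate 3 was the lowest library for ier2a, fosab, fosl1a, egr1 and atf3, 5 of the 10, and was 1.23 and 0.99 below the group mean for egr1 and atf3 on that scale. The spread within groups of egr1 and fosb was above that of most genes (84.7th and 83.4th percentile of all genes tested), and the median percentile of the 10 genes was 65.6. ATG5 replicate 2 had the smallest total count of the 6 libraries, 33668921, and the largest TMM factor, 1.47; the part of depth in its levels was not tested.

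**Figure D3:**
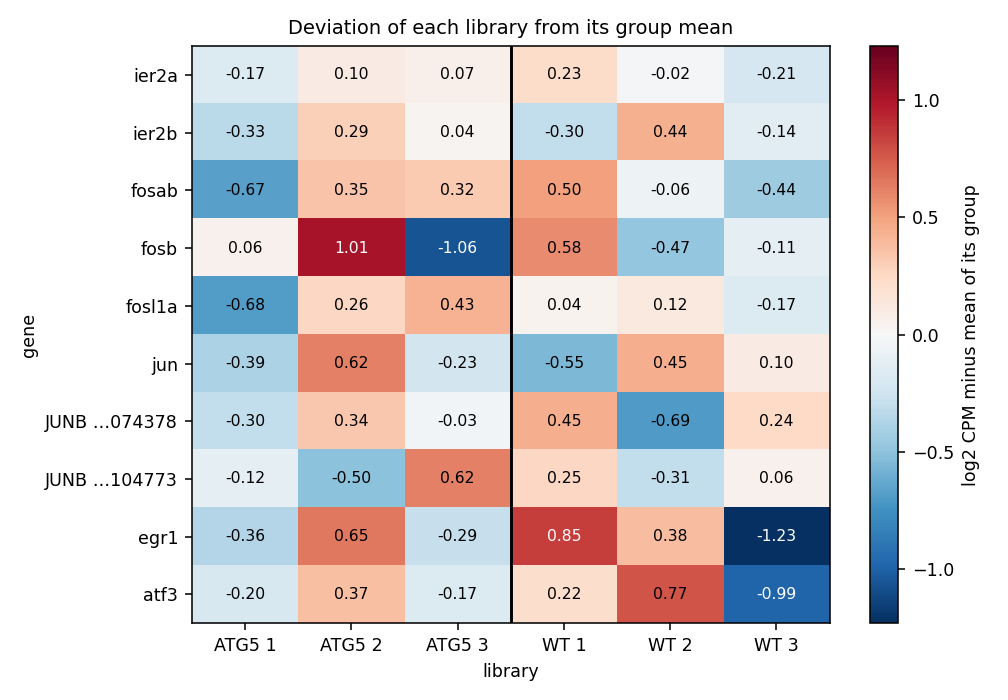
Deviation of each library (columns) from the mean of its group for each of the 10 genes (rows), in log2 CPM; red is above and blue below the group mean, with the value printed in each cell. ATG5 2 is above its group mean for 9 of the genes, and WT 3 is lowest for egr1 at -1.23.

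Related genes were looked at as lists: the rest of the AP-1 family, other early response genes, upstream kinases and factors, feedback regulators, inhibitors, targets, and the stress pathway of atf3. These lists overlap in part and, without the 10 genes, held 145 tested genes, of which 38 were higher and 20 lower in ATG5. The counts of each list are set beside the 17.3% of all genes called higher and the 13.2% called lower, and the medians beside 0.03 over all genes tested. With library sizes only, 53.3% of all genes were called higher and 2.84% lower, and their median log2 fold change was 0.97. A call of lower is therefore lost more easily in that setting. Leaving out any 1 library under TMM scaling also lowered the shares of all genes, to 10.4% to 13.3% higher and 7.39% to 9.77% lower.

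In the rest of the AP-1 and related zipper family 5 genes of the 12 tested rose and 0 fell, and the median log2 fold change was 0.34. At an unadjusted p under 0.05 and with DESeq2, 1 gene was lower, and with limma-voom 0. JUND, the Jun gene known for steady rather than induced expression, averaged 24.3 ± 5.45 CPM (SD, n = 3) in ATG5 and 15.4 ± 1.29 CPM in WT, and just passed (log2 fold change 0.66 ± 0.20, adjusted p = 0.049). BATF3, a zipper factor known from dendritic cells in mammals, stood at 3.59 ± 1.96 CPM against 0.0534 ± 0.0924 CPM (adjusted p = 0.0105), with a WT mean under the level of 3 counts in a library. The related genes batf2 (log2 fold change 1.72 ± 0.34), MAFG ENSDARG00000100097 (1.50 ± 0.32) and JDP2 ENSDARG00000040137 (1.33 ± 0.19) passed at low levels. BATF3 and that JDP2 gene, whose WT mean was 0.316 CPM, passed the low-count filter through the ATG5 libraries. They could hardly have been called lower. The other JDP2 row, ENSDARG00000020133, did not pass (0.46 ± 0.48, adjusted p = 0.478). The Fos gene FOSL2 did not pass (0.23 ± 0.73, adjusted p = 0.78). The Fos paralogues fosaa, fosl1b and fosl2l were too scarce to test, with at most 4, 12 and 2 counts in any library, and so was BATF, with at most 25. Against 5 with all libraries, the number of genes called higher was 2 without ATG5 replicate 1, ATG5 replicate 2, WT replicate 1 or WT replicate 2, and 1 without ATG5 replicate 3 or WT replicate 3.

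Among other immediate early and early response genes 11 of 37 tested rose and 2 fell; the median log2 fold change was 0.19. EGR2 ENSDARG00000042826, a relative of EGR1, averaged 3.59 ± 1.05 CPM (SD, n = 3) in ATG5 and 0.312 ± 0.151 CPM in WT, a log2 fold change of 3.53 ± 0.44 (adjusted p = 0.00397). Its paralogue egr2a (1.94 ± 0.16) and EGR3 (2.37 ± 0.45), picked out after their values were seen, also passed, while egr4 had at most 3 counts in any library. EGR2 ENSDARG00000042826, EGR3, GADD45B ENSDARG00000013576 and PTGS2 ENSDARG00000010276, all called higher, had WT means of 0.316 CPM or less. They passed the low-count filter through the ATG5 libraries, so a call of lower was hardly possible for them. KLF6, a zinc finger factor induced in liver injury, rose from 10.6 ± 2.24 to 41.3 ± 4.09 CPM (log2 fold change 1.96 ± 0.19). Its paralogue klf6b, at means of 0.39 CPM in ATG5 and 0.40 CPM in WT, did not pass (-0.01 ± 0.18, adjusted p = 0.984). NFIL3, a zipper repressor that opposes clock-driven PAR factors, had a log2 fold change of 2.27 ± 0.18. In the other direction ZFP36L1 ENSDARG00000021443, which encodes a protein that speeds decay of AU-rich mRNAs, fell from 1343 ± 237 to 250 ± 12.6 CPM (log2 fold change -2.43 ± 0.16). The other ZFP36L1 row, ENSDARG00000016154, did not pass (0.02 ± 0.33, adjusted p = 0.962). CSRNP1 ENSDARG00000038429, picked out after its values were seen, fell too (-1.75 ± 0.33) but did not pass when scaled by library size alone (adjusted p = 0.0549). Its paralogue csrnp1a did not pass (-0.71 ± 0.32, adjusted p = 0.143), and its groups overlapped. Without ATG5 replicate 1, ATG5 replicate 3 or WT replicate 3, 7 genes of this list were called higher.

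**Figure D4:**
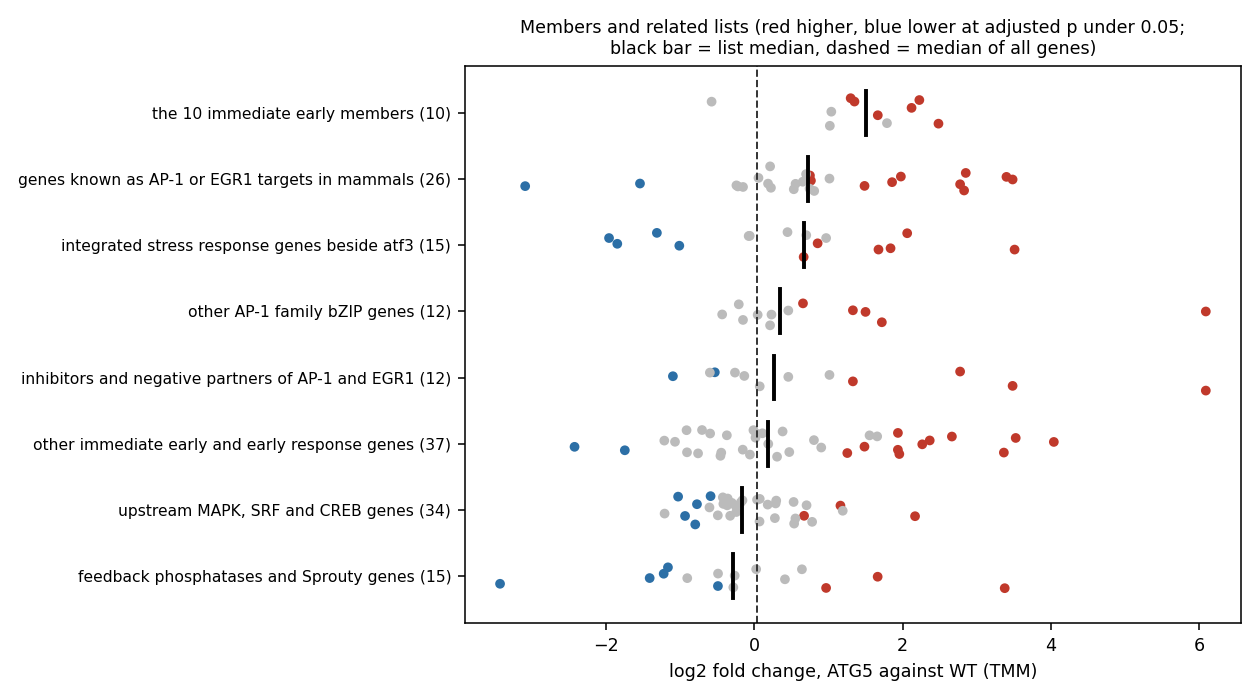
Log2 fold change (ATG5 against WT, TMM scaling) of every tested gene of the 10 immediate early members and of each related list, with the number tested in brackets; red genes were called higher and blue genes lower, black bars are list medians, and points are spread vertically only to separate them. The median of the members is 1.51, while that of the upstream list is -0.17 and that of the feedback list is -0.29.

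Of the upstream kinases and factors that switch these genes on, 3 of 34 tested rose and 5 fell, and the median log2 fold change was -0.17. With library sizes only the median was 0.77 (20 higher, 0 lower), below the 0.97 over all genes in that setting. EGFR, the receptor for epidermal growth factor, averaged 26.6 ± 5.18 CPM (SD, n = 3) in ATG5 and 54.3 ± 4.06 CPM in WT, a log2 fold change of -1.03 ± 0.17 (adjusted p = 0.00851). It did not pass when scaled by library size alone (-0.08, adjusted p = 0.716), but was still below the median of all genes in that setting. The same held for map2k4b, a kinase of the JNK route (-0.78 ± 0.14, adjusted p = 0.466 with library sizes only). RPS6KA1, a kinase downstream of ERK, and IKBKB, a kinase of the NF-kB route, rose (2.17 ± 0.39 and 1.16 ± 0.20). The SRF genes ENSDARG00000102867 and ENSDARG00000053918 did not pass (1.19 ± 0.36 and -0.43 ± 0.22, adjusted p = 0.105 and 0.202), and of their ELK partners neither ELK3 (-0.37 ± 0.37, adjusted p = 0.41) nor ELK1 (-0.49 ± 0.06, adjusted p = 0.0608) passed. ELK4 was called lower (-0.80 ± 0.15, adjusted p = 0.0281), but not with library sizes only (adjusted p = 0.604); ELK1 and ELK4 were picked out after their values were seen. The number called lower was 2 without ATG5 replicate 1, ATG5 replicate 3 or WT replicate 1, and 3 without WT replicate 2.

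Feedback regulators that shut the kinase routes off changed in both directions. Of 15 tested, 3 rose and 5 fell, and their median log2 fold change was -0.29. Scaled by library size alone the median was 0.67 (9 higher, 1 lower), below the 0.97 over all genes in that setting. DUSP2, a phosphatase known from activated immune cells, averaged 13.2 ± 2.88 CPM (SD, n = 3) against 1.27 ± 0.385 CPM (log2 fold change 3.38 ± 0.30), and DUSP4 at 2.81 ± 0.834 CPM against 30.4 ± 8.76 CPM (-3.43 ± 0.34). DUSP7 and DUSP16 fell as well (-1.17 ± 0.13 and -1.23 ± 0.15), but not with library sizes only (adjusted p = 0.29 and 0.22). DUSP1, itself an immediate early gene, did not pass, at 65.4 ± 21.3 CPM against 64.4 ± 16.8 CPM (0.02 ± 0.35, adjusted p = 0.964). The number called lower was 3 without ATG5 replicate 2 or WT replicate 1.

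Of the inhibitors and negative partners of AP-1 and EGR1, 4 of 12 tested rose and 2 fell; the median log2 fold change was 0.26. The co-repressors of EGR proteins NAB2 and NAB1 ENSDARG00000042940, of which NAB2 is itself an EGR1 target in mammals, rose from low levels: NAB2 averaged 1.39 ± 0.19 CPM (SD, n = 3) in ATG5 and 0.123 ± 0.0346 CPM in WT (log2 fold change 3.48 ± 0.20), and that NAB1 gene at 1.01 ± 0.339 CPM against 0.146 ± 0.023 CPM (2.78 ± 0.32). The WT means of NAB2 and that NAB1 gene lay near the level of 3 counts in a library, so the size of these fold changes is uncertain. All 4 genes called higher, NAB2, that NAB1 gene, BATF3 and JDP2 ENSDARG00000040137, had WT means of 0.316 CPM or less. They passed the low-count filter through the ATG5 libraries, so a call of lower was hardly possible for them. NAB1 ENSDARG00000040700 did not pass (1.01 ± 0.42, adjusted p = 0.135). The ubiquitin ligase gene itcha, whose mammalian relative targets Jun proteins for degradation, fell (-1.101 ± 0.144), but not with library sizes only (adjusted p = 0.478). Its paralogue ITCH ENSDARG00000099199 did not pass (-0.14 ± 0.14, adjusted p = 0.581). Leaving out any 1 library left 1 gene called lower.

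Of the genes known as AP-1 or EGR1 targets in mammals, 10 of 26 tested rose and 2 fell, and the median log2 fold change was 0.72. Among the 10 that rose, NAB2, NAB1 ENSDARG00000042940, plaua and cxcl8a had WT means of 0.326 CPM or less. They passed the low-count filter through the ATG5 libraries, so a call of lower was hardly possible for them. TIMP2 ENSDARG00000075261, an inhibitor of matrix proteases, rose from 2.89 ± 0.669 to 8.11 ± 1.12 CPM (1.49 ± 0.22). The other TIMP2 row, ENSDARG00000061226, did not pass (0.21 ± 0.15, adjusted p = 0.406). The genes that fell were FN1 ENSDARG00000006526, a fibronectin gene that the liver secretes at high level (17308 ± 2153 CPM in WT and 2026 ± 336 CPM in ATG5, -3.10 ± 0.17), and VEGFA ENSDARG00000034700, an angiogenic growth factor (-1.55 ± 0.16). The other FN1 row, ENSDARG00000019815, did not pass (0.05 ± 0.65, adjusted p = 0.953). Nor did the other VEGFA row, ENSDARG00000103542 (0.65 ± 0.30, adjusted p = 0.158), where every ATG5 library lay above every WT library. The protease gene MMP9 did not pass (0.18 ± 0.62, adjusted p = 0.839), nor did the cyclin gene CCND1 (0.22 ± 0.16, adjusted p = 0.389); both were picked out after their values were seen. The number called higher was 6 without ATG5 replicate 2, 4 without WT replicate 1 and 5 without WT replicate 3.

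Genes of the integrated stress response, of which atf3 is a known target, did not move in 1 direction. Of 15 tested, 6 rose and 4 fell; the median log2 fold change was 0.66. HSPA5, the main chaperone of the endoplasmic reticulum, rose from 158 ± 46.8 to 506 ± 171 CPM (log2 fold change 1.67 ± 0.36), and DDIT3, the pro-apoptotic factor CHOP, from 25.6 ± 1.06 to 46.3 ± 12.1 CPM (0.85 ± 0.22). The damage and stress gene GADD45A rose on both of its rows, ENSDARG00000043581 (2.06 ± 0.43) and ENSDARG00000104571 (3.51 ± 0.86), as did sesn2 (1.84 ± 0.40). The pathway's own factors atf4a (0.45 ± 0.14, adjusted p = 0.0891) and atf4b (-0.08 ± 0.17, adjusted p = 0.782) did not pass. CHAC1, a glutathione-degrading target of ATF4 picked out after its values were seen, fell from 358 ± 140 to 144 ± 20.5 CPM (-1.32 ± 0.34). The other genes of the list called lower, also picked out in that way, were ppp1r15a (-1.01 ± 0.22), VLDLR (-1.85 ± 0.49) and DDIT4 (-1.96 ± 0.72). With library sizes only none of the 15 was called lower and 10 higher, where 2.84% of all genes tested were called lower and 53.3% higher. The number called higher was 3 without WT replicate 1 or WT replicate 3; the number called lower was 0 without ATG5 replicate 1 and 2 without any 1 of the other 5 libraries.

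Markers of several cell types differed between the groups beside the immediate early genes, and in bulk liver RNA a change in the number of cells of a type and a change in RNA per cell cannot be told apart. The labelled tissue was clear from hepatocyte markers, whose summed level was 57230 to 82600 CPM in ATG5 and 192500 to 242000 CPM in WT, with 8 of 12 called lower. Counts of markers called are to be read beside the 17.3% of all genes called higher and the 13.2% called lower. Summed macrophage markers were 1177 to 1568 CPM in ATG5 and 162.2 to 241.1 CPM in WT, with 13 of 16 tested called higher and 1 lower. Much of that sum was cd74a, at 610.8 to 734.4 CPM in ATG5 and 95.4 to 172.6 CPM in WT. The listed marker mpeg1.1 had no match, and MFAP4 stood on 8 rows that did not share 1 direction. Its rows ENSDARG00000088745, ENSDARG00000089667 and ENSDARG00000090783 were called higher (log2 fold change 4.12, 4.65 and 4.16). Its row ENSDARG00000090557 was the 1 called lower (-2.19, adjusted p = 0.00448). The macrophage marker csf1rb did not pass (-0.56, adjusted p = 0.526). Lymphocyte markers summed to 42.64 to 118 CPM against 2.72 to 4.004 CPM. Of 12 listed genes 9 were tested, all without cd79b, PAX5 and RAG1. All 9 were called higher by edgeR, and 6 by limma-voom. In WT, cd8a, cd79a and cd37 stood at 0.28 CPM or less and passed the low-count filter through the ATG5 libraries. For such genes a call of lower was hardly possible. Biliary markers summed to 2285 to 3264 CPM against 667.9 to 851.6 CPM, with 6 of 7 called higher. Most of that sum was ANXA4 and krt18a.1. ANXA4 stood at 886.5 to 1973.6 CPM in ATG5 and 200.1 to 335.2 CPM in WT. The levels of krt18a.1 were 1003.5 to 1244.5 and 284.6 to 482.1 CPM. The sum does not follow epcam, cldn7b and SOX9, which stood at 141.15 CPM or less and were also called higher. The gene krt4 did not pass (-0.63, adjusted p = 0.286), and CFTR, at 0.238 CPM or less, was not tested.

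Other marker lists moved less. Neutrophil markers summed to 111.4 to 159.4 CPM in ATG5 and 59.14 to 138.5 CPM in WT (1 of 6 called higher). Most of that sum was CEBPA (58.1 to 105 CPM in ATG5, 34.8 to 113.7 CPM in WT) and srgn (48.5 to 49.2 and 18.1 to 21.1 CPM). The markers lyz, npsn, CSF3R and MMP9 stood at 2.45 CPM or less, so the sum does not follow them. Endothelial markers summed to 117.5 to 124.1 CPM in ATG5 and 150.4 to 175.8 CPM in WT. Of 7, kdrl was called lower (54.0 to 59.4 against 92.9 to 107 CPM) and TIE1 higher (19.3 to 20.5 against 9.44 to 12.7 CPM), and no other gene tested passed. The lower sum in ATG5 therefore rests largely on kdrl. The log2 fold change of kdrl, -0.80, was smaller in size than the median shift of 0.94 seen with library sizes only. The direction of the endothelial difference may therefore depend on the scaling, and these sums were not run with library sizes only. Stellate and fibroblast markers summed to 123.6 to 147 CPM in ATG5 and 71.48 to 293.1 CPM in WT (2 higher and 1 lower of 9). The wide WT range came largely from COL5A1, the gene called lower. COL5A1 stood at 220.8, 21.4 and 70.1 CPM in WT replicates 1 to 3 and at 13.0 to 16.9 CPM in ATG5. HAND2 and TAGLN ENSDARG00000033466 were called higher, and the median log2 fold change of the list was 0.81, so the sum does not follow most of its genes. Erythrocyte markers summed to 48.35 to 353.2 CPM and 133.8 to 665.1 CPM, pancreas markers to 436 to 630.6 CPM and 92.01 to 3008 CPM, and intestine markers to 8.79 to 17.42 CPM and 7.497 to 10.64 CPM, with 0 called in these lists by edgeR, 0 at an unadjusted p under 0.05 and 0 by limma-voom, while DESeq2 called 1 pancreas gene lower and 1 intestine gene higher. The intestinal gene FABP6 had no count in any library. Mitochondrial genes took 3.446% to 3.571% of counts in ATG5 and 5.601% to 5.878% in WT. The part of these differences in the levels of the immediate early genes was not tested. ATG5 replicate 2, the highest ATG5 library for 8 of the 10 genes, had the lowest summed macrophage (1177 CPM), lymphocyte (42.64 CPM), biliary (2285 CPM) and hepatocyte (57230 CPM) markers of its group. Its summed endothelial (117.5 CPM), stellate and fibroblast (123.6 CPM) and intestine (8.79 CPM) markers were also the lowest, but not its neutrophil, erythrocyte or pancreas markers. Biliary genes did not share 1 order: ANXA4 was lowest in ATG5 replicate 2 (886.5 CPM), but epcam and cldn7b in ATG5 replicate 1 (44.8 and 45.5 CPM). How these sums relate to the immediate early levels of ATG5 replicate 2 was not tested.

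**Figure D5:**
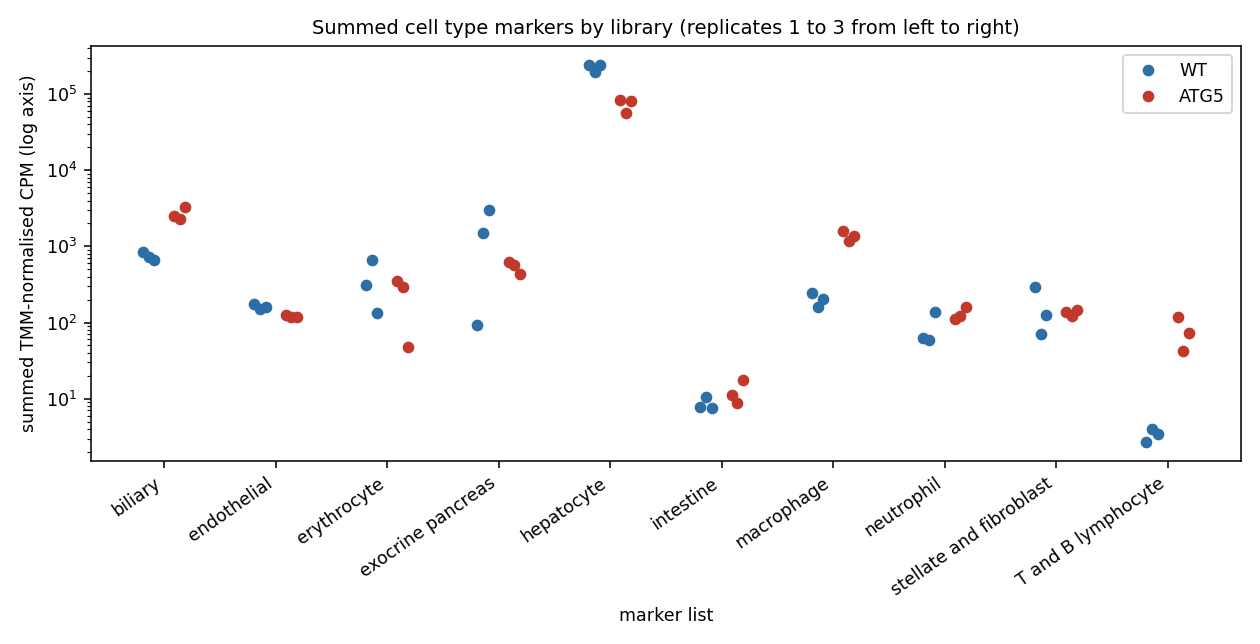
Summed TMM-normalised CPM of each cell type marker list (horizontal axis) in each library on a log axis, WT in blue and ATG5 in red, replicates 1 to 3 from left to right. Under TMM scaling the macrophage, lymphocyte and biliary sums are higher in every ATG5 library than in every WT library. The hepatocyte and endothelial sums are lower under that scaling, and the endothelial difference lies largely in kdrl.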

How the data were processed

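The authors deposited 1 table of estimated counts per Ensembl gene in 6 libraries; these need not be whole numbers and were rounded here. The tools in the submitters' processing notes are kallisto 0.45.0, sleuth 0.30.0 and FastQC 0.11.5, with GRCz11 as the build and no order given. The kit was TruSeq Stranded Total RNA, per the labels' protocols. The sources used here do not say how strand was set in counting, so antisense and overlapping genes cannot be told apart, and counts of near-identical paralogues are uncertain. Symbols matched 23608 of 30628 genes.

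Genes were filtered with filterByExpr (20366 left), scaled with TMM and tested with edgeR 4.0.16 under R 4.3.3 (functions glmQLFit and glmQLFTest, with group as the design's only term) at an adjusted p of 0.05; the steps were tested on simulated data. Levels are CPM with SD. An SE was computed from the variation of log2 CPM within groups (prior count 2). A level of 3 counts in a library was 0.067 to 0.0891 CPM before TMM scaling, which covers counting error only. TMM scaling raises that level in the WT libraries, whose factors were 0.684 to 0.763. Ratios of 2 genes used a pseudocount of 0.5. No pair of libraries agreed within sampling noise (chi-square per degree of freedom 101.5 or more). Same-numbered replicates did not deviate together, so they were not paired.

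The 10 genes, the lists and the tests were chosen with earlier results of these data known. Named genes were the 10, then, per list, up to 4 called genes with the smallest p and the direct regulators, partners and paralogues of the 10; not all are named. Alternatives were RLE factors, library sizes only, 2 other filters (any count; 1 CPM in 3 libraries), DESeq2 1.42.0, limma-voom (limma 3.58.1), a replicate block, a pseudocount of 2 for ratios, and leaving out each library. Figures were drawn with matplotlib 3.10.9.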

Additional observations from a re-analysis of the deposited data

How the results depend on the processing

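With RLE factors, no low-count filter, a stricter filter, DESeq2 or limma-voom, counts over all genes and over the 10 genes stayed within 1.5 times, and the calls that moved are those of fosl1a (1.27 with limma-voom, lost), jun (1.00 with DESeq2, gained) and egr1 (1.76 with DESeq2, 1.93 with limma-voom and 1.79 with the stricter filter, all gained). With library sizes only, 10853 genes were higher and 578 lower, 91 and 4 in the related lists together, fosb, jun and egr1 passed (2.01, 1.98 and 2.76), and JUNB ENSDARG00000104773 turned to 0.36; the cause was not tested. Same-numbered replicates were not paired (correlation of deviations -0.04, -0.10 and 0.02); the replicate block gave 2253 higher and 1636 lower genes, 20 and 13 in the related lists, 5 of the 10 genes higher, fosl1a at 1.28 (adjusted p = 0.0747), JUNB ENSDARG00000074378 at 1.34 (0.0934) and jun passing at 1.02 (0.0337). Counts in single lists moved by more than 1.5 times with DESeq2 (early response genes lower 7 against 2, upstream genes lower 9 against 5), without the low-count filter (AP-1 relatives higher 3 against 5, inhibitors lower 1 against 2), with the stricter filter (inhibitors higher 2 against 4), with limma-voom (AP-1 relatives higher 3) and with the block (AP-1 relatives higher 1, targets higher 4 against 10, stress genes higher 2 against 6, upstream genes lower 2, feedback genes lower 3 against 5, inhibitors lower 1). With library sizes only, higher counts were 9, 21, 9, 19 and 10 for AP-1 relatives, early response genes, inhibitors, targets and stress genes, and 1 early response gene and 0 inhibitors were lower. The ratios of both gene pairs moved by less than their spread under each alternative run on them.

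Leaving out 1 library gave 2218 to 2791 genes higher and 1583 to 2071 lower. Both counts were lowest with WT replicate 1 left out (2218 and 1583), followed by ATG5 replicate 1 for genes higher (2312, with 1614 lower). In the related lists together 21 to 28 genes were higher and 11 to 17 lower. Of the 10 genes, 4 to 5 were higher and 0 to 1 lower, and the log2 fold changes ran from 2.12 to 2.34 for ier2a, 1.50 to 1.92 for ier2b, 2.28 to 2.77 for fosab, 0.34 to 1.39 for fosb, 1.104 to 1.60 for fosl1a, 0.65 to 1.27 for jun, 1.01 to 1.52 for JUNB ENSDARG00000074378, -0.98 to -0.36 for JUNB ENSDARG00000104773, 1.38 to 2.23 for egr1 and 1.76 to 2.54 for atf3. The differences in log2 ratio ran from 0.32 to 0.83 for ier2a to ier2b and from 1.57 to 2.31 for the JUNB genes. With 2 samples left in a group the fit takes their spread with that of the other group. The gene fosb had the fewest counts, 12 to 95 per library; the part of depth in its spread was not tested.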
